A study of Mus musculus with 6 samples.

Results

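The 9 genes described here encode aldehyde oxidases and aldehyde dehydrogenases, enzymes that turn aldehydes into acids, measured in the livers of mice bred to lose Keap1 in hepatocytes and of their genetic controls. They were chosen by name (Aox1, Aox3, Aldh1a1, Aldh1a7, Aldh1b1, Aldh2, Aldh3a2, Aldh7a1 and Aldh9a1), and every probe set that the platform's table pairs with 1 of these symbols alone was taken, which gave 16 probe sets for 9 of the 18193 genes with a probe set of their own. The Keap1 conditional knockouts (Keap1 CKO) carried Alb-Cre and Keap1(flox/-), and the genetic controls carried Alb-Cre and Keap1(flox/+), with 3 livers in each group. All 6 mice were males of 9 weeks given vehicle alone (DMSO and Cremophor-EL in PBS), and each array held RNA of 1 mouse. Both groups carry the Cre, which the albumin promoter drives in hepatocytes. The knockouts' other Keap1 allele is null in every cell, with or without Cre, and the controls' floxed allele is open to the same Cre, which leaves them 1 intact allele in hepatocytes. In whole liver, fewer cells of a type and less RNA per cell cannot be told apart.

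Aldehyde oxidases are cytosolic enzymes that hold a molybdenum cofactor, iron-sulfur clusters and FAD, and they oxidise aldehydes and nitrogen-containing rings of drugs with oxygen as the acceptor. Aldehyde dehydrogenases use NAD or NADP instead and divide the work by compartment and substrate, from retinal and acetaldehyde to fatty aldehydes and the aldehydes of amino acid breakdown. KEAP1 holds down NRF2, a transcription factor that binds antioxidant response elements together with small Maf proteins, and members of both enzyme families have been described as NRF2-responsive in rodents. Keap1 itself fell to a signal of 326, 151 and 214 in the Keap1 CKO livers, against 786, 843 and 700 in the controls, in 1 of its probe sets (log2 difference -1.74, limma adjusted p = 0.0103). The second Keap1 probe set differed by -0.71 without passing (limma adjusted p = 0.223). Nfe2l2, the gene of NRF2, also fell in 1 probe set, with 2222, 2899 and 2397 in the Keap1 CKO livers, against 3676, 4285 and 3912 in the controls (log2 difference -0.66, limma adjusted p = 0.0338), and differed by -0.18 in the other (limma adjusted p = 0.719).

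The sequence before the start of these genes is shown first because NRF2 targets often carry antioxidant response elements there. RefSeq promoter windows (assembly GRCm38.p6, 250 bases before to 50 after a start) were found for 7 of the 9 genes. The core TGACNNNGC, searched on both strands, was present for 1 of the 7, Aldh9a1, where it read TGACTAGGC and began 87 bases before the start, and 14.0% of all 27025 genes with a window hold this core. The variant TGAGNNNGC was present for 3 of the 7, Aldh1a1, Aldh1a7 and Aldh3a2, and for 19.8% of all genes. The matches of Aldh1a1 and Aldh1a7 lie in a stretch that these paralogs share, so they are not separate occurrences. Another window of Aldh1a1 held neither core. Neither core was found in the windows of Aox1, Aox3 and Aldh1b1, which says only that these letters are not in those windows.

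Aox1 and Aox3 are neighbouring coding genes on chromosome 1, and their signals differed in opposite directions. The part of each window that lies before the outermost annotated start is printed, on the plus strand, at chr1:58029719-58029808 for Aox1 and chr1:58112886-58113134 for Aox3 (GRCm38.p6, RefSeq).
Aox1: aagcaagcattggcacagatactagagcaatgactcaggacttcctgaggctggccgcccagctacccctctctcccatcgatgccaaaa
Aox3: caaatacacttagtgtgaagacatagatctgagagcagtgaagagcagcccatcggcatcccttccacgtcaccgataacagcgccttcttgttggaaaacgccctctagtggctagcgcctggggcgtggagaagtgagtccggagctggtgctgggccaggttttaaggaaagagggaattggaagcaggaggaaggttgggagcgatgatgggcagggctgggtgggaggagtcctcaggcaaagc

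Aldh1a1 and Aldh1a7 are neighbouring paralogs on chromosome 19, and the windows that hold TGAGNNNGC are printed to show how much of them the paralogs share. The Aldh1a1 sequence lies before the second of its starts at chr19:20601718-20601967 on the plus strand, and that of Aldh1a7 at chr19:20727557-20727806 on the minus strand (GRCm38.p6, RefSeq). Capitals mark the match to the core.
Aldh1a1: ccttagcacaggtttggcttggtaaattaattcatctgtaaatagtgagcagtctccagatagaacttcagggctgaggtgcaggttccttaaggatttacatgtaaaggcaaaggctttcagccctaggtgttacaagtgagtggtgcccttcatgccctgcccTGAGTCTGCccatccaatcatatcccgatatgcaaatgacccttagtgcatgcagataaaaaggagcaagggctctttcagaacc
Aldh1a7: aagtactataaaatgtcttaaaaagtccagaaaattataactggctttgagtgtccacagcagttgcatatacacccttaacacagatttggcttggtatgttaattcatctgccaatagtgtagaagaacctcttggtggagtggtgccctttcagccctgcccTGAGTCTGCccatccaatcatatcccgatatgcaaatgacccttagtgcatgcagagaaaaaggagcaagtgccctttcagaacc

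Compared without gaps, the last 100 bases before the start were identical at 94 positions in this pair, with an unbroken shared run of 65 bases from 94 to 30 bases before the start that contains the match. Over all 250 bases 51.6% of positions were identical. The match began 85 bases before the start in both genes.

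The deposited values are linear signals scaled to the same average on every array, and differences are on the scale log2(signal + 16). The tests cover 27022 probe sets, those with a mean log2 value no lower than the 40th percentile, fitted with limma, with Benjamini-Hochberg adjustment over all of them and a threshold of 0.05. Of the 16 member probe sets 15 were tested and 2 passed, 1 higher and 1 lower in the Keap1 CKO livers. Of all probe sets tested 1.52% passed, 0.803% upward and 0.714% downward. In 5 of the 15 member probe sets no knockout value lay within the range of the controls or the reverse, 1 higher and 4 lower. The higher one was of Aox1. The lower ones were that of Aox3 and the Aldh2 probe sets 1437410_at, 1434988_x_at and 1434987_at, so Aldh2 makes up most of them. Such separation without overlap was found in 20.5% of all probe sets tested, 9.07% higher and 11.4% lower. The median log2 difference of the 15 was -0.19, against -0.04 over all probe sets tested. Of the 15, 6 lay above 0 and 9 below, and 55.6% of all probe sets tested were lower. The median and the counts are by probe set, so genes with several weigh more. Aldh2 had 0.12 in its brightest probe set and -0.31, -1.40, -0.84 and -0.19 in the others. Of the 9 member probe sets among the brightest 10% of all tested, 5 lay above 0.

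**Figure D1:**
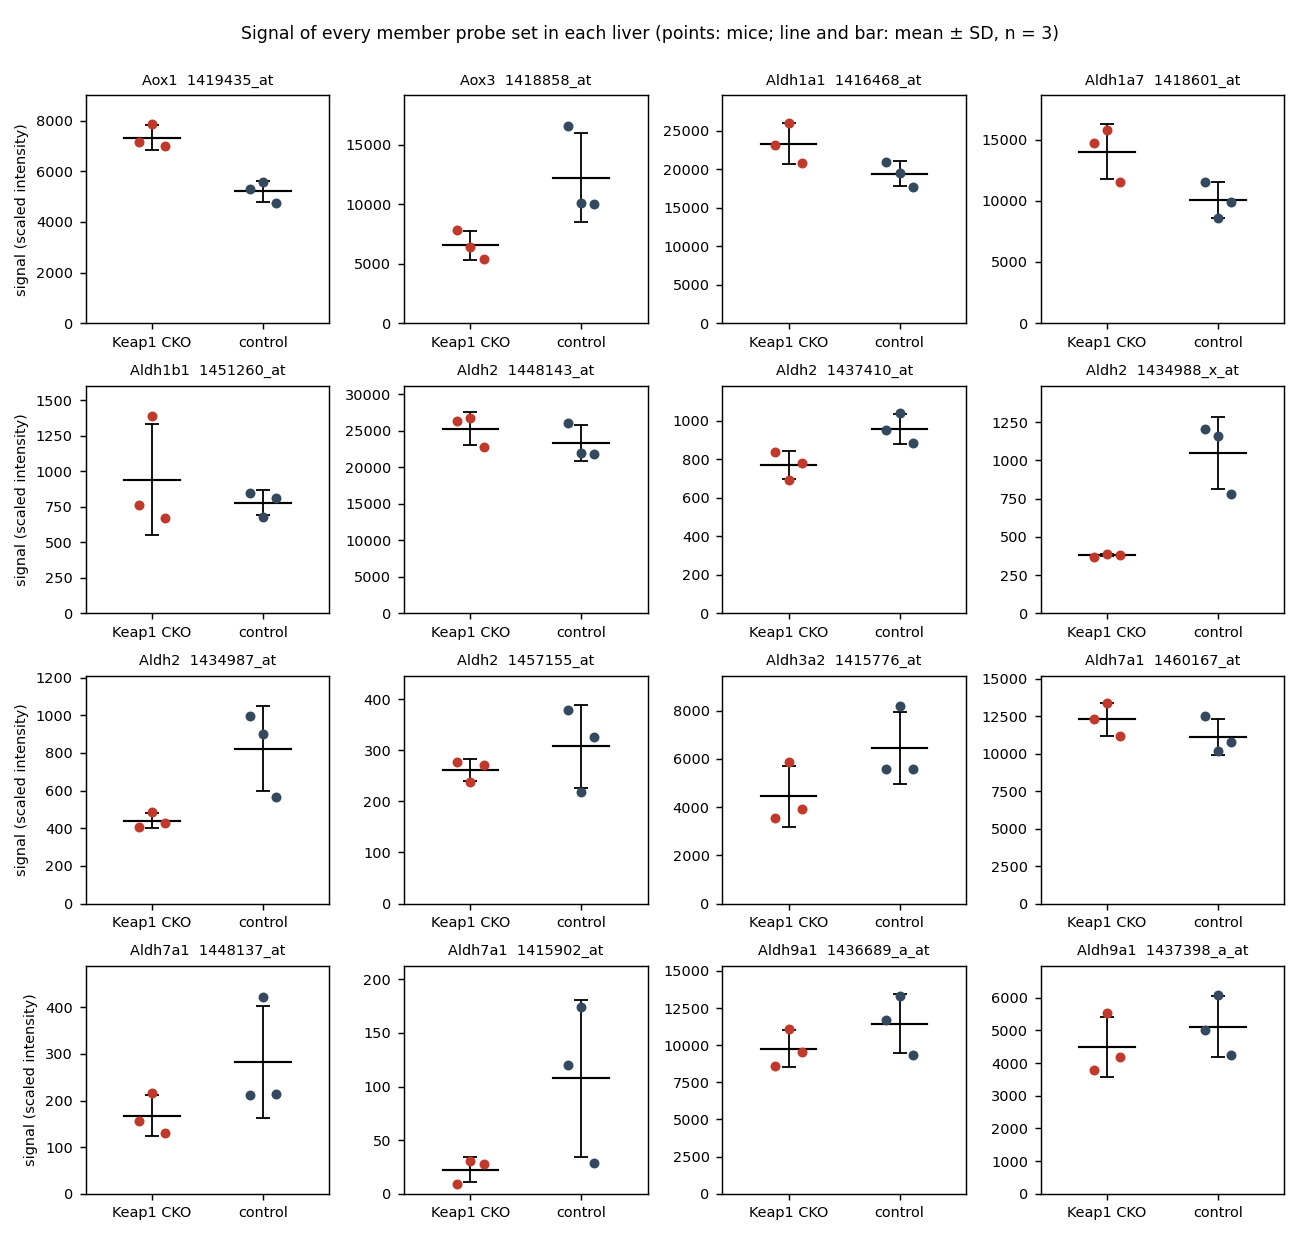
Signal of the 16 member probe sets (scaled intensity, axes from 0) in 3 Keap1 CKO livers and 3 control livers, with each point 1 mouse and the line and bar the mean ± SD. The points of the groups are apart for Aox1, Aox3 and the Aldh2 probe sets 1437410_at, 1434988_x_at and 1434987_at.

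The arrays of a group correlated at 0.967 to 0.973 across the probe sets tested and those of different groups at 0.956 to 0.962. The liver label was borne out by albumin, with a signal between 22569 and 28702 on all 6 arrays. The log2 difference was above 0 in 16 of 17 hepatocyte marker probe sets, which come from 7 genes, and 0 passed. The groups overlapped in several of them. The summed signal of the hepatocyte markers was 376371 to 419283 in the Keap1 CKO livers and 330975 to 362704 in the controls. Summed endothelial markers were 6082 to 6759 in the Keap1 CKO livers and 5650 to 5900 in the controls. Without Lyve1, left out after its values were seen, that sum was 4601 to 5273 in the Keap1 CKO livers and 4886 to 5225 in the controls, so the separation rests on Lyve1. For Kupffer cell markers the log2 difference was above 0 in 8 of 10 probe sets, with a median of 0.25, and 0 passed. The groups did not overlap in both Marco probe sets (1.40 and 1.31, limma adjusted p = 0.12 and 0.212), while the summed Kupffer markers overlapped at 14195 to 18972 in the Keap1 CKO livers and 10280 to 17427 in the controls. The sums for stellate cells, lymphocytes and red cells overlapped too. Among bile duct genes control 2 was far above the other arrays in Krt19, which was too dim to be tested and had 88.5, 11.3 and 18.4 in the Keap1 CKO livers and 8.30, 502 and 17.4 in the controls. It was also highest in Krt7 and in 1 of the Epcam probe sets, whereas control 3 was highest in the other Epcam probe set and in 2 of the 3 for Sox9. The summed cholangiocyte markers were 348 to 575 in the Keap1 CKO livers and 363 to 1746 in the controls, the highest in control 2. Among the brightest 10% of probe sets tested, with mean signals from 2731, the median log2 difference was 0.08 and 66.2% lay above 0, and 9 of the 15 member probe sets belong to that class.

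Aox1, the aldehyde oxidase with a human counterpart, rose. Its probe set 1419435_at had a signal of 7146, 7887 and 6991 in the Keap1 CKO livers, against 5310, 5569 and 4743 in the controls. Every knockout lay above every control, and the spread within each group was small beside the gap. The means were 7341 ± 479 in the Keap1 CKO livers and 5207 ± 422 in the controls (SD, n = 3 each), so that the log2 difference was 0.50 (standard error 0.10, 95% interval 0.27 to 0.72), or 1.41-fold (limma adjusted p = 0.0498). In simulated data the share of false calls, taken over all calls, ran somewhat above the nominal level. The call of Aox1 lies at the threshold. It was lost without any 1 of the 6 arrays (log2 differences of 0.43 to 0.55, limma adjusted p between 0.0842 and 0.155), without the filter (0.0861), with an offset of 1 (0.0514), without the variance trend (0.193), with arrays centred on their medians (0.154) and when the hybridisation controls set the scale (difference 0.33, adjusted p = 0.202). Hepatocyte markers, with a median log2 difference of 0.21, lay in the same direction, and their part in the Aox1 difference was not tested.

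Aox3, a further hepatic aldehyde oxidase of the mouse, differed the other way. Its probe set 1418858_at had a signal of 7833, 6364 and 5405 in the Keap1 CKO livers, against 16529, 10081 and 10046 in the controls. The groups did not overlap, and control 1 was far above the other controls. The means were 6534 ± 1223 in the Keap1 CKO livers and 12219 ± 3733 in the controls (SD, n = 3 each), so that the log2 difference was -0.88 (standard error 0.20, 95% interval -1.34 to -0.42). It did not pass (limma adjusted p = 0.0847). It passed in 3 of 20 other settings. These were quantile normalization (-0.95, limma adjusted p = 0.0431), cyclic loess (-0.96, limma adjusted p = 0.0439) and scaling on the hybridisation controls (-1.04, limma adjusted p = 0.0255). That last scaling put the median of all probe sets at -0.19. After median centring Aox3 differed by -0.78 (limma adjusted p = 0.213). Leaving out control 1 gave -0.64 (limma adjusted p = 0.145).

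Within an array, the log2 ratio of Aox1 to Aox3 does not depend on the linear scaling of that array. It was higher by 1.37 in the Keap1 CKO livers than in the controls, with all 3 knockouts above all 3 controls, in a comparison chosen after the values were seen (exact two-sided permutation p = 0.1, the smallest that 3 against 3 allows). Without any 1 array this difference was 1.15 to 1.54. The related aldehyde oxidase Aox4, next to Aox3 on the chromosome, had signals of 6.80 to 39.8 in the Keap1 CKO livers and 7.60 to 35.8 in the controls and was too dim to be tested. Xdh, the xanthine dehydrogenase of the same enzyme family, differed by 0.12 (limma adjusted p = 0.599). The enzymes that make and finish the molybdenum cofactor, with those that use it, were listed as 11 genes, of which 7 were tested and 0 passed, with a median log2 difference of -0.08. The largest difference in that list was in Mocos, the sulfurase that activates the cofactor of these oxidases, at 3473 ± 230 in the Keap1 CKO livers and 2546 ± 311 in the controls (SD, n = 3 each), a log2 difference of 0.45 (limma adjusted p = 0.111).

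**Figure D2:**
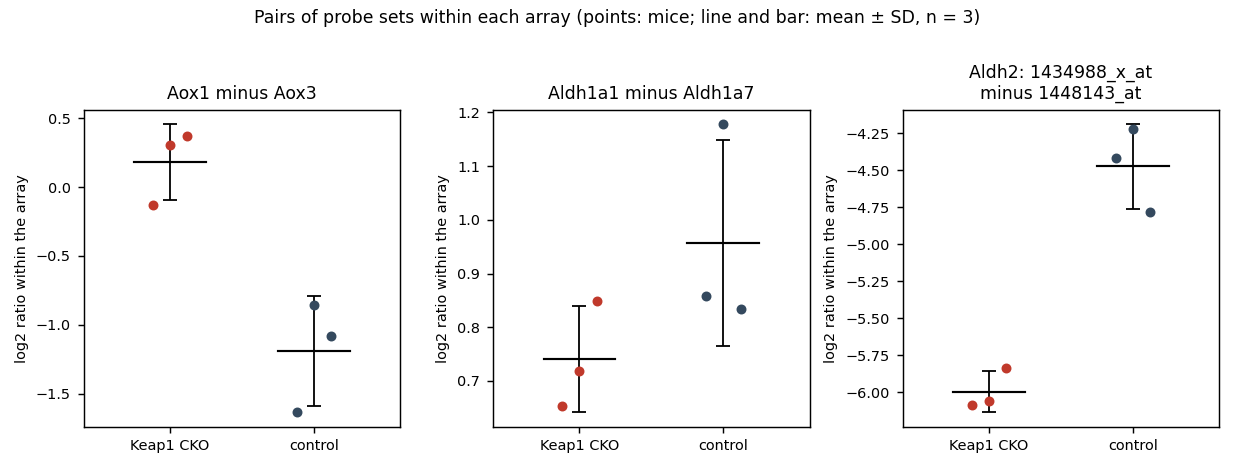
Within-array log2 ratio of 3 pairs of probe sets in 3 Keap1 CKO livers and 3 controls, with each point 1 mouse and the line and bar the mean ± SD. The height of a ratio also holds the unlike brightness of the probe sets, so only the distance between the groups is read, which is 1.37 for Aox1 and Aox3, -0.22 for Aldh1a1 and Aldh1a7 and -1.52 for the Aldh2 pair.

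The cytosolic enzymes of the ALDH1A group did not pass. Aldh1a1, which oxidises retinal to retinoic acid and clears products of lipid peroxidation, had a signal of 23212, 26019 and 20800 in the Keap1 CKO livers, against 20944, 19539 and 17713 in the controls. The lowest knockout lay just under the highest control. The log2 difference was 0.26 with a 95% interval of 0.01 to 0.52, or 1.01-fold to 1.43-fold (limma adjusted p = 0.32). Aldh1a7, its rodent paralog, had a signal of 14743, 15805 and 11548 in the Keap1 CKO livers, against 11549, 8628 and 9932 in the controls. Knockout 5 and control 1 were nearly equal, and the other knockouts lay above all controls. The log2 difference was 0.48 with a 95% interval of 0.15 to 0.81 (limma adjusted p = 0.172), and it did not pass in any of 20 other settings (limma adjusted p from 0.0902 to 0.408). Within an array the ratio of Aldh1a1 to Aldh1a7 was lower by 0.22 on the log2 scale in the Keap1 CKO livers, and the groups overlapped (exact two-sided permutation p = 0.2, where 0.1 is the smallest possible). That difference was -0.10 without control 2 and -0.28 without control 3. As close paralogs, these genes may share signal on either probe set.

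Of the genes that supply, carry or respond to retinoids, 7 of 11 were tested and 0 passed (median log2 difference 0.16). That median is by probe set, and several are of Ttr, also a hepatocyte marker, with log2 differences from 0.155 to 0.234. The largest difference was in Cyp26a1, a retinoic acid hydroxylase that retinoic acid itself induces, at 498 ± 68.2 in the Keap1 CKO livers and 337 ± 76.1 in the controls (SD, n = 3 each), a log2 difference of 0.55 (limma adjusted p = 0.216). Among 15 alcohol and retinol dehydrogenases, which interconvert alcohols and aldehydes, 12 were tested, 1 fell and 0 rose. Adh4, an alcohol dehydrogenase that also oxidises retinol, had a signal of 4420, 4394 and 4153 in the Keap1 CKO livers, against 9424, 7172 and 6440 in the controls. The groups did not overlap and the knockouts were close to each other (log2 difference -0.81, standard error 0.14, limma adjusted p = 0.0252). Adh4 passed in 14 of 20 other settings, with limma adjusted p between 0.0106 and 0.141. The retinal reductase Rdh11 differed by -1.22 in 1 probe set (limma adjusted p = 0.0509) and by -0.65 in another (limma adjusted p = 0.20).

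Aldh2, the mitochondrial enzyme that clears acetaldehyde made from ethanol, had 5 probe sets that differed unlike each other. In 1448143_at the signal was 26329, 26794 and 22744 in the Keap1 CKO livers, against 26094, 21970 and 21865 in the controls. The groups overlapped, with a log2 difference of 0.12 and a 95% interval of -0.13 to 0.37 (limma adjusted p = 0.667). In 1434988_x_at the signal was 371, 385 and 383 in the Keap1 CKO livers, against 1207, 1161 and 778 in the controls. The knockouts were nearly equal and well below every control, of which control 3 was the lowest. This probe set fell, at 380 ± 7.72 in the Keap1 CKO livers and 1049 ± 236 in the controls (SD, n = 3 each), a log2 difference of -1.40 or 2.64-fold (standard error 0.17, 95% interval -1.79 to -1.01, limma adjusted p = 0.00591). It passed in all 18 other settings that tested it (log2 differences of -1.60 to -1.29, limma adjusted p from 0.00209 to 0.0426).

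A related probe set, 1434987_at, had a signal of 407, 484 and 428 in the Keap1 CKO livers, against 997, 902 and 566 in the controls. The groups did not overlap, and control 3 lay closest to the knockouts. The log2 difference was -0.84 (95% interval -1.30 to -0.38, limma adjusted p = 0.0959), and -1.09 without control 3, where it passed (limma adjusted p = 0.0193). The platform table gives the Aldh2 symbol but no sequence accession for 1434987_at and 1434988_x_at, and the ending _x_at marks a probe set whose probes can also match other transcripts. In 1437410_at the signal was 838, 695 and 780 in the Keap1 CKO livers, against 951, 1040 and 886 in the controls, again without overlap (log2 difference -0.31, limma adjusted p = 0.298). The dimmest, 1457155_at, had 277, 238 and 272 in the Keap1 CKO livers, against 379, 219 and 325 in the controls, which overlapped (log2 difference -0.19, limma adjusted p = 0.73). Within an array the log2 ratio of 1434988_x_at to 1448143_at was lower by 1.52 in the Keap1 CKO livers, with no overlap, in a comparison chosen after the values were seen (exact two-sided permutation p = 0.1, the smallest possible). Of all probe sets tested 55.6% were lower in the Keap1 CKO livers, and 11.4% were lower without overlap. Of the 5 Aldh2 probe sets 4 lay below 0, 3 of them without overlap, and 1 passed. These 5 belong to 1 gene and were read in the same livers, so they are not separate observations. The positive one, 1448143_at, kept its sign in 17 of 20 other settings, with 0.21 after median centring. It lay just below 0 after quantile normalization, after cyclic loess and with the scale set by hybridisation controls (-0.05 to -0.005), where all 5 were below 0. These values were far from passing (limma adjusted p = 0.801, 0.982 and 0.858). Scaling on hybridisation controls also put the median of all probe sets at -0.19. The platform table does not name the transcript that the falling probe set measures.

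**Figure D3:**
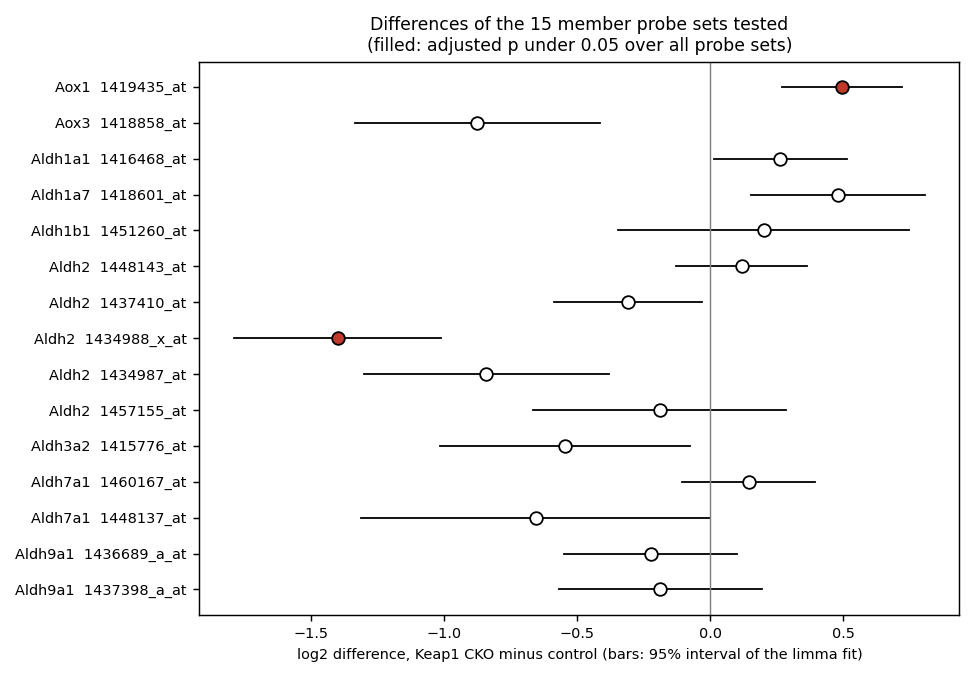
Log2 difference, Keap1 CKO minus control, of the 15 member probe sets tested, with bars for the 95% interval of the limma fit. Filled points passed the threshold, which were Aox1 at 0.50 and the Aldh2 probe set 1434988_x_at at -1.40.

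Aldh1b1, a mitochondrial enzyme close to Aldh2 in sequence, had a signal of 761, 1389 and 674 in the Keap1 CKO livers, against 843, 680 and 811 in the controls. Knockout 4 alone lay above the controls. The log2 difference was 0.20 with a 95% interval of -0.35 to 0.75 (limma adjusted p = 0.756), and -0.11 without knockout 4.

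Aldh3a2, the membrane-bound fatty aldehyde dehydrogenase that oxidises long-chain aldehydes from sphingolipid and ether lipid breakdown, had a signal of 3546, 5879 and 3909 in the Keap1 CKO livers, against 5593, 8182 and 5563 in the controls. Knockout 4 lay among the controls and the other knockouts below them all. The log2 difference was -0.55 with a 95% interval of -1.01 to -0.08 (limma adjusted p = 0.274). Control 2, with the high Krt19 signal, was the highest, and without it the difference was -0.36 (limma adjusted p = 0.514). Any link between that Krt19 signal and the Aldh3a2 value was not tested.

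The enzymes of amino acid and carnitine metabolism did not pass. Aldh7a1, which acts in lysine breakdown, had a signal of 12304, 13390 and 11202 in the Keap1 CKO livers, against 12485, 10154 and 10748 in the controls, in 1460167_at. The groups overlapped (log2 difference 0.15, 95% interval -0.10 to 0.40, limma adjusted p = 0.591). In 1448137_at, another Aldh7a1 probe set, the signal was 156, 217 and 131 in the Keap1 CKO livers, against 212, 421 and 214 in the controls, with control 2 far above the rest. That log2 difference was -0.66 (limma adjusted p = 0.346), and -0.35 without control 2. The remaining Aldh7a1 probe set, 1415902_at, did not reach the filter, at 9.40 to 30.2 in the Keap1 CKO livers and 29.1 to 174 in the controls. Aldh9a1, which makes a precursor of carnitine, gave overlapping groups in both of its probe sets. In 1436689_a_at its signal was 8608, 11078 and 9577 in the Keap1 CKO livers, against 11674, 13324 and 9357 in the controls. In 1437398_a_at it was 3780, 5534 and 4194 in the Keap1 CKO livers, against 5000, 6099 and 4248 in the controls. The log2 differences were -0.22 and -0.19 (limma adjusted p = 0.522 and 0.658), with 95% intervals that reached from -0.57 to 0.19 in all.

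Outside the 9 genes, 13 further aldehyde dehydrogenases were listed, of which 10 were tested and 0 passed, with a median log2 difference of 0.13. The largest difference was in Aldh18a1, a mitochondrial enzyme of proline synthesis, at 0.67 in its probe set 1415836_at (limma adjusted p = 0.507), while its other 3 tested probe sets differed by 0.46, 0.19 and -0.24. Aldh1l1, the folate enzyme 10-formyltetrahydrofolate dehydrogenase, was chosen after its values were seen. Its probe set 1424400_a_at had a signal of 20364, 23034 and 22763 in the Keap1 CKO livers, against 18926, 13550 and 14291 in the controls, without overlap (log2 difference 0.51, limma adjusted p = 0.114). Its other probe set, 1424401_at, gave overlapping groups (log2 difference 0.28, limma adjusted p = 0.464). Aldh3a1, often named among NRF2-responsive dehydrogenases, and the retinal dehydrogenases Aldh1a2 and Aldh1a3 were too dim to be tested, with mean signals from 6.90 to 40.5 in the Keap1 CKO livers and 17.7 to 43.9 in the controls.

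Among 11 other enzymes that clear reactive aldehydes 9 were tested, 2 rose and 0 fell, the carbonyl reductases Cbr1 and Cbr3. Cbr1 rose to 18752 ± 1455 in the Keap1 CKO livers, against 3187 ± 435 in the controls (SD, n = 3 each), a log2 difference of 2.56 (limma adjusted p = 4.54e-05). Cbr3 differed by 6.73 (limma adjusted p = 0.000209). Gsta4, a glutathione transferase chosen after its values were seen, did not pass (log2 difference 1.25, limma adjusted p = 0.0509). Its signal was 5152, 9704 and 4881 in the Keap1 CKO livers, against 2132, 2571 and 3270 in the controls, without overlap. The list's median log2 difference was 0.16. Of 15 textbook NRF2 targets, 14 were tested, 10 rose and 0 fell, with a median log2 difference of 1.06. They were Gsta2, Txnrd1, Gsr, Nqo1, Pgd, Gclc, Srxn1, Gstm1, Cbr3 and Abcc4, and Nqo1 stood at 2766 ± 228 in the Keap1 CKO livers and 549 ± 101 in the controls (SD, n = 3 each). Of 12 enzymes listed for routes that give rise to aldehydes in the liver, 11 were tested and 0 passed (median 0.12). The largest difference there was in Prodh, the proline dehydrogenase, at 0.50 (limma adjusted p = 0.269).

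Genes that mark the zones of the liver lobule were set beside the members. Of 8 pericentral genes tested 1 rose, the ammonium transporter Rhbg (log2 difference 1.36, limma adjusted p = 0.0145), and 0 fell, with a median of 0.19. Of 6 periportal genes tested 0 passed, with a median of -0.01. The largest periportal difference was in Pck1, which makes phosphoenolpyruvate for gluconeogenesis, at -0.77 (limma adjusted p = 0.542).

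**Figure D4:**
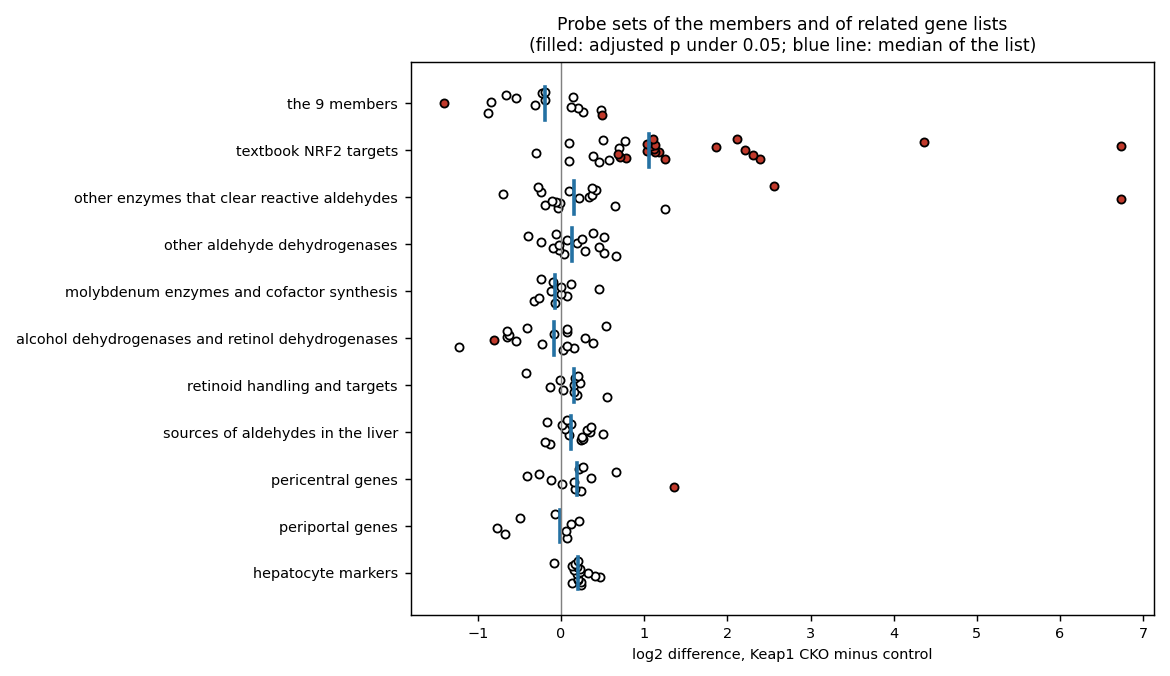
Log2 difference, Keap1 CKO minus control, of each probe set tested of the 9 members and of related gene lists, filled where the adjusted p was under 0.05, with the median of each list in blue. The NRF2 targets have a median of 1.06, while the members have one of -0.19. Both medians count probe sets, so genes with several, such as Aldh2, weigh more.

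The genes whose 6 log2 values, centred on their mean, lay nearest to those of Aox1 were Pex14, a peroxisomal import protein, and Vcam1, an adhesion molecule, at root mean square distances of 0.05. Pex14 had 2493 ± 84.6 in the Keap1 CKO livers and 1857 ± 104 in the controls (SD, n = 3 each). Nearest to the falling Aldh2 probe set 1434988_x_at were Ttc39c and the NADPH oxidase Nox4, at distances of 0.12 and 0.13. Nox4 had 700 ± 51.3 in the Keap1 CKO livers and 1614 ± 357 in the controls (SD, n = 3 each).

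**Figure D5:**
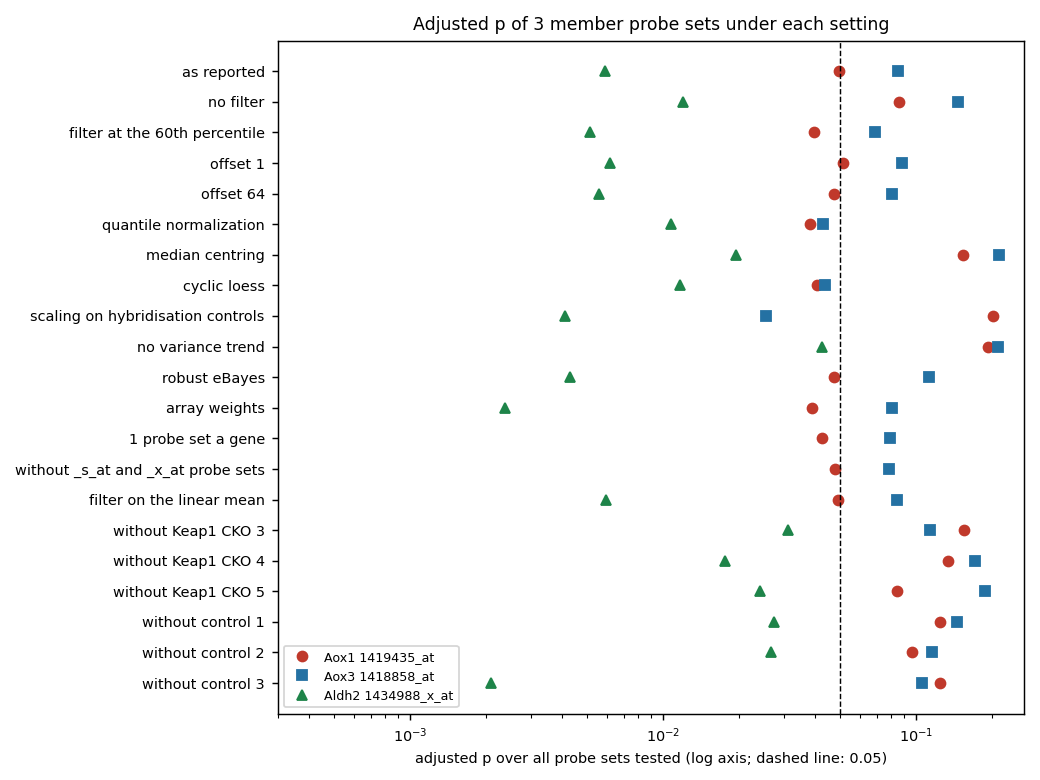
Adjusted p (log axis, dashed line at 0.05) of Aox1, Aox3 and the Aldh2 probe set 1434988_x_at as reported and under each other setting. The Aldh2 probe set lies left of the line wherever it was tested, Aox1 in 9 of 20 other settings and Aox3 in 3 of 20.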

How the data were processed

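Liver RNA of 6 mice was measured on single-colour arrays, per the labels' protocols after reverse transcription from a T7-oligo(dT) primer and biotin labelling. The deposited values are linear intensity, 1 per probe set. The authors' summary software: not given in the sources used here. Trimmed of 2% at either end, every array averaged 500.0, the mark of a common scaling target set by the authors, which hides a change in total RNA per cell. Of 45101 probe sets 64 were controls. Symbols came from the platform table.

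From these, log2(signal + 16) was computed and fitted with lmFit and trended eBayes of limma 3.58.1 (R 4.3.3), two-sided, over 27022 probe sets, and checked on simulated data, where the share of false calls ran somewhat above the nominal level, so calls near the threshold are less sure. The groups share only replicate number 3, so nothing was paired, and the number of arrays limits the precision. The members and the gene lists were chosen with earlier results of these data known. Named are all members, each listed gene that passed or the largest difference of a list with none, Keap1, Nfe2l2, and the 2 nearest genes of each member called. Outside that rule, Rdh11, Xdh, Aox4, Gsta4, Aldh1l1, Aldh3a1, Aldh1a2, Aldh1a3 and the named marker genes were picked after their values were seen. Of the listed genes, 10 had no probe set of their own, and those too dim were not tested. Alternatives were the filter, the offset, the normalization, the variance model, array weights, the choice of probe sets and leaving out each array.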

Additional observations from a re-analysis of the deposited data

How the results depend on the processing

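Over 20 other settings the Aldh2 probe set 1434988_x_at kept its call wherever it was tested, and Aox1 and Aox3 kept their direction. Member probe sets called higher, 1 as reported (Aox1), were 0 without the filter, with an offset of 1, after median centring, with the scale set by hybridisation controls, without the variance trend and without any 1 array (0 to 0). Those called lower, also 1, were 2 after quantile normalization, cyclic loess and scaling on the hybridisation controls (with Aox3) and with array weights (with Aldh2 1434987_at), 0 with 1 probe set a gene and without _s_at and _x_at probe sets, and 1 to 2 without 1 array. Member genes called, 2 as reported, were 1 in 6 settings (no filter, offset 1, median centring, no variance trend, 1 probe set a gene, no _s_at or _x_at) and 1 to 1 without 1 array, but 3 after quantile normalization and cyclic loess.

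All probe sets called, 410 as reported, were 271 without the filter, 105 without the variance trend, 258 with 1 probe set a gene, and 158 to 297 without 1 array, the lowest without knockout 3 (213, 210 and 246 without controls 1, 2 and 3). Of these calls 52.9% were higher, with 66.3% under median centring and 24.1% under scaling on hybridisation controls, which put the median of all probe sets at -0.19. Relative to that median the difference of Aox1 was 0.52. Over the related lists 13 genes were called as reported and 8 without the variance trend.

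The sign turned, in differences that did not pass, for Aldh2 1448143_at after quantile normalization (-0.046), cyclic loess (-0.005) and scaling on the hybridisation controls (-0.045), for Aldh7a1 1460167_at after that scaling (-0.018), and for Aldh1b1 without knockout 4 (-0.112, against 0.401 without knockout 5). The causes were not tested. No paired analysis was possible because the groups share only replicate number 3. Probe sets under the filter were not tested at this signal.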
